A study of Mus musculus with 12 samples.

Results

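Hox genes encode homeodomain transcription factors and lie in 4 clusters, Hoxa, Hoxb, Hoxc and Hoxd, on mouse chromosomes 6, 11, 15 and 2. Every probe annotated to a single gene whose symbol starts with Hoxa, Hoxb, Hoxc or Hoxd and a digit was taken, which gave 37 probes for 36 of the 12817 genes named on the array. They covered 34 of the 39 protein-coding Hox genes of the mouse and 2 antisense RNAs, Hoxa11os and Hoxd3os1. Coverage was 9 of 11 genes in Hoxa, 10 of 10 in Hoxb, 6 of 9 in Hoxc and 9 of 9 in Hoxd, and Hoxa3 alone had a pair of probes. The remaining genes were not analysed here.

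Within a cluster the genes are numbered by position, and genes with the same number in different clusters are paralogues. In the embryo the low numbers are used from the hindbrain backwards and the high numbers in the lumbar, sacral and tail regions and in the distal limbs and genital region, so that the set of active Hox genes records where along the body a cell came from. Much of the mesenchyme of the face and the front of the skull comes from neural crest in front of the domain of Hox expression, and forced Hoxa2 expression in that crest is known from chick embryos to block the facial skeleton. MC3T3-E1 is a clonal preosteoblast line started from mouse calvaria, the roof of the skull. The question was where each Hox gene stands in such cells against a reference RNA and whether this moves as the cells mature.

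The cells had been grown in medium with glycerol phosphate and ascorbic acid to drive osteoblastic differentiation, an addition shared by all groups. Total RNA was taken on Day 2, when the submitters describe dividing preosteoblasts, on Day 5, after growth arrest, on Day 10, during differentiation, and on Day 28, as mature osteoblasts. Each day had 3 arrays, 12 in all, and on each array Cy3 cDNA of the cells was hybridised together with Cy5 cDNA of Mouse reference RNA (Stratagene), a commercial RNA preparation. There was no untreated culture, no other cell line and no array with exchanged dyes. The labels do not say whether the replicates were separate cultures, so each p-value below measures the spread between these arrays, which may be technical.

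A level here is the mean log2 ratio of cells to reference over the 4 days. Each array was centred on its median, so 0 is the median ratio of all probes, and higher or lower is meant relative to that median. A level is a ratio of 1 gene in cells and reference, not an abundance, and it does not rank genes by how much RNA they make. The direction of the ratio is not stated. It was read as positive when higher in the cells, because 14 of 16 mesenchymal and osteoblast markers lay above 0 (mean 1.84, SD 1.77) and markers of other lineages mostly did not (9 of 20 above 0, mean -0.81, SD 1.73). The medians were 1.88 and -0.03, so the reading rests mainly on the mesenchymal list. This reading is likely, and were it wrong every direction below would turn. In the mesenchymal list Postn, a matrix protein of bone-forming connective tissue, had the highest level, 6.71, Cdh11, an osteoblast cadherin, stood at 2.35 and Sparc, a bone matrix protein, at 1.81. Thy1, a surface protein of stromal cells, had the lowest, -1.83, and Lox, a collagen cross-linking enzyme, was also below 0 at -0.48. Among the other lineages Krt18, an epithelial keratin, had the lowest level, -5.71, and Epcam, an epithelial surface protein, stood at -3.22, while Krt8, the partner of Krt18, was at -0.04 and Cd79a, a B-cell gene, at 0.48. Col1a1, the main bone collagen, at 2.48, and Sp7, an osteoblast transcription factor, at 2.58, were above the reference. Lox, Krt8, Cd79a, Col1a1 and Sp7 were named after their values were seen.

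Day 10 replicate 3 and Day 5 replicate 2 stood apart, with mean correlations to the other arrays of their day of 0.795 and 0.838 against 0.856 to 0.919 for the other arrays. No spot intensities were used, so a ratio near 0 may come from similar expression in cells and reference or from a weak spot in both channels, and these cannot be told apart. The same holds for fewer expressing cells and less RNA per cell. Among lists of other cell types, the median level was -0.57 for 7 macrophage and osteoclast markers, 0.14 for 6 endothelial, -0.18 for 8 skeletal muscle and 0.37 for 5 adipocyte markers. Over the 4 days the mean of the macrophage list lay between -0.34 and 0.03 on Day 2 and between 0.11 and 0.19 on Day 28. Within it Ctsk, a bone-degrading protease also made outside osteoclasts, rose by 2.63 (adjusted p = 0.00286 in the limma fit). Ctsk was the only one of the 7 to pass from Day 2 to Day 28, and the median difference of the list was -0.03. Cebpa of the adipocyte list rose by 1.64 (limma adjusted p = 0.000105). No other of the 5 adipocyte markers passed from Day 2 to Day 28, and their median difference was -0.19. Among the other lineages, with a median difference of -0.1, 1 of 2 probes of Ighm, an antibody gene, rose by 2.91. No Hox probe passed in the same comparison.

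The upstream sequences of the 2 Hox genes with the highest levels and of the gene with the lowest are shown because these genes mark the ends of the range. Each is the 250 bases before the RefSeq gene start on build GRCm38.p6, written 5′ to 3′ on the strand of the gene. Capitals mark TGATNNAT on either strand, the core of the site bound by Hox proteins together with Pbx cofactors. Hoxb1 lies at chr11:96365508-96365757 on the plus strand, Hoxa2 at chr6:52164832-52165081 on the minus strand and Hoxd8 at chr2:74704365-74704614 on the plus strand.
Hoxb1: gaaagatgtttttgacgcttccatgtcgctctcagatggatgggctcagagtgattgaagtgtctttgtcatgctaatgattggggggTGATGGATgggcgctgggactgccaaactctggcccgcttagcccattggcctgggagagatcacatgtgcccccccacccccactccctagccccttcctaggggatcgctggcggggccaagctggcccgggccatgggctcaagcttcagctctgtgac
Hoxa2: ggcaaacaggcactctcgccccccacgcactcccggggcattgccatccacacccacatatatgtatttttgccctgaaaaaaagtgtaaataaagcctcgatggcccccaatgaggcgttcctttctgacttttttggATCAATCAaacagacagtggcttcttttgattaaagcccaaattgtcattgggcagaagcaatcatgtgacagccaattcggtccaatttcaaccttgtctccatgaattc
Hoxd8: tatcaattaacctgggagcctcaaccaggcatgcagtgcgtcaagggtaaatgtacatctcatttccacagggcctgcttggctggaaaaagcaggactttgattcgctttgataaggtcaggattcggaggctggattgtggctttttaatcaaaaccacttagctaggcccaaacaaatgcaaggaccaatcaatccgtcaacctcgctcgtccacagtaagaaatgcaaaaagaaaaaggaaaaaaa

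The Hoxb1 and Hoxa2 windows each hold the core, and the Hoxd8 window has no match to these letters. RefSeq promoters were at hand for 21 of the 34 coding Hox genes, 23 promoters in all, and 4 of them (17.4%) held the core against 7.68% of all 32851 promoters. The other 2 belonged to Hoxb8, with a level of -0.18, and Hoxd11, at 0.15, so matches stood at genes on both sides of 0. TATAAA on either strand was in 4 Hox promoters (17.4%) and in 12.4% of all. Hox promoters had a median GC content of 58.0% against 52.4%, and 12 of 23 (52.2%) had a ratio of observed to expected CpG over 0.6, against 34.0%. These matches describe letters and are no evidence of binding.

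Of the 37 Hox probes, 27 had a level within 0.5 of 0, a share near that of all 17504 probes tested (74.5%). At an adjusted p under 0.05 in the limma fit, 24 probes differed from the reference, where 61.9% of all probes did. Of these, 9 were higher in the cells (background 30.8%) and 15 lower (background 31.1%), and the median was -0.09 against 0.01 for all probes. No Hox probe exceeded a level of 1, as 4.46% of all probes did, and 4 lay below -1 (Hoxd8, Hoxb7, Hoxc13 and Hoxc5), a range that held 5.32% of all probes. On all 12 arrays 3 probes were above 0 (14.9% of all probes) and 8 below (17.1%), and the other 26 had arrays on both sides.

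**Figure D1:**
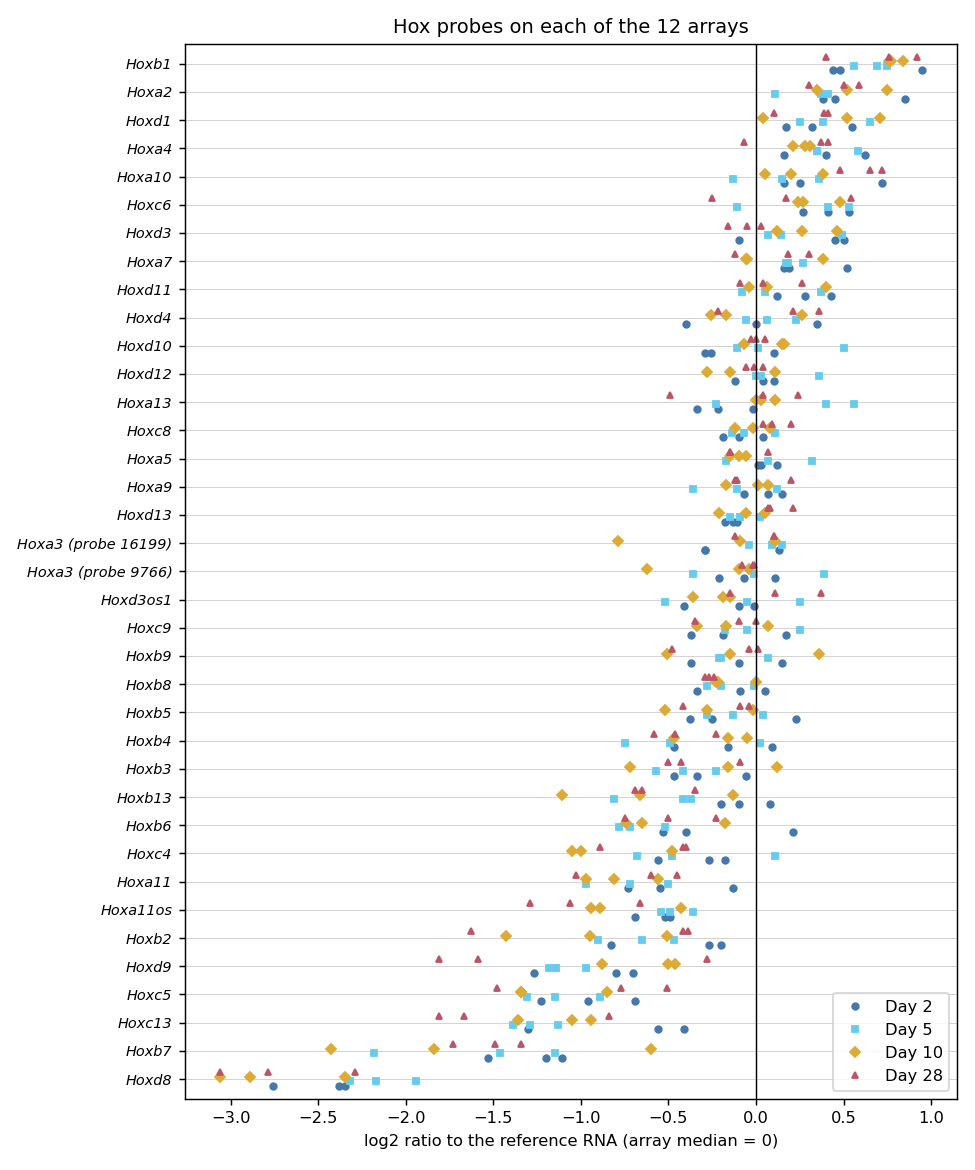
Log2 ratio of cells to reference for each of the 37 Hox probes (rows, ordered by level) on each of the 12 arrays (points, coloured by day). Hoxd8 lies between -3.06 and -1.94 on every array, Hoxb1 between 0.40 and 0.95, and most other probes scatter around 0.

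Hoxd8, a central gene of the Hoxd cluster used in the trunk of the embryo, was the furthest below the reference. Its log2 ratios were -2.76, -2.35 and -2.38 on Day 2, -2.17, -1.94 and -2.32 on Day 5, -2.89, -3.06 and -2.35 on Day 10, and -3.06, -2.29 and -2.79 on Day 28. No array was above -1.94, and the Day 5 arrays lay above those of Day 2 and Day 10 without overlap. Its level of -2.53 (SE 0.08, n = 12 arrays, limma adjusted p = 5.28e-12) corresponds to a 5.77-fold higher signal in the reference, at percentile 0.6 of all probes. Hoxd9, its neighbour, which acts in the lumbosacral region and the upper limb segment of the mouse, gave -1.27, -0.80 and -0.70 on Day 2, -1.18, -0.97 and -1.14 on Day 5, -0.46, -0.88 and -0.50 on Day 10, and -0.28, -1.59 and -1.81 on Day 28. Day 28 held both its highest and its lowest array. The level of Hoxd9 was -0.96 (SE 0.11, limma adjusted p = 3.05e-06).

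The remaining Hoxd genes were near the reference. Hoxd1, used in sensory neurons of the mouse, was above 0 on all 12 arrays, from 0.04 to 0.71, with a level of 0.37 (SE 0.07). Hoxd3, a gene of the neck vertebrae, and Hoxd11, needed with Hoxa11 for the forearm bones, were past the threshold at 0.18 and 0.15 with arrays on both sides of 0. Their calls were lost in several alternatives. Hoxd4 (0.03), Hoxd10 (0.02), Hoxd12 (0.01) and Hoxd13 (-0.04), the last the main gene of the digits, did not pass. Hoxd3os1, antisense to Hoxd3, stood at -0.10 and did not pass either.

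Of the 10 Hoxb genes, 8 were lower in the cells (31.1% of all probes) and 1 higher (30.8%), with a median level of -0.32, the same median as for the 6 Hoxc genes. Hoxb7, a thoracic gene, gave -1.11, -1.20 and -1.53 on Day 2, -1.15, -1.46 and -2.18 on Day 5, -1.84, -2.43 and -0.60 on Day 10, and -1.49, -1.73 and -1.34 on Day 28. All arrays were below 0, and Day 10 replicate 3, which stood apart, held the highest. The level of Hoxb7 was -1.50 (SE 0.13, limma adjusted p = 1.92e-07). Hoxb2, a hindbrain gene, was next at -0.72 (SE 0.11) and ranged from -1.63 on Day 28 to -0.20 on Day 2. Hoxb6 was at -0.48, Hoxb13, the last gene of the cluster, used in the tail bud and prostate, at -0.45, Hoxb3 at -0.32, Hoxb4 at -0.31, and Hoxb5 and Hoxb8 both at -0.18. The call of Hoxb5 was lost in 6 of the 12 fits that left out 1 array. Hoxb9, a gene of the rib-bearing region, was at -0.12 and did not pass.

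Hoxb1 was the exception in its cluster and had the highest level of all Hox probes. It specifies the segment of the hindbrain that gives rise to the facial nerve. Its log2 ratios were 0.95, 0.44 and 0.48 on Day 2, 0.56, 0.75 and 0.69 on Day 5, 0.77, 0.84 and 0.76 on Day 10, and 0.92, 0.40 and 0.76 on Day 28. Every array lay above 0, and the days overlapped except that Day 10 lay just above Day 5. The level of 0.69 (SE 0.06, limma adjusted p = 1.48e-07) is a 1.62-fold higher signal in the cells, at percentile 92.4 of all probes.

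In the Hoxa cluster 4 of 10 coding probes were higher in the cells (30.8% of all probes) and 1 lower (31.1%), with a median of -0.00. Hoxa2, which gives the second branchial arch its identity and keeps bone formation there in check in the mouse, gave 0.45, 0.85 and 0.38 on Day 2, 0.11, 0.37 and 0.41 on Day 5, 0.75, 0.52 and 0.35 on Day 10, and 0.30, 0.50 and 0.59 on Day 28. It was above 0 on all 12 arrays with overlapping days, at a level of 0.47 (SE 0.06, limma adjusted p = 7.75e-06), a 1.38-fold higher signal in the cells. Hoxa4, of the neck and upper trunk, was at 0.33 with 1 array below 0. Hoxa10, which keeps ribs off the lumbar vertebrae together with its paralogues, was also at 0.33, and its Day 28 arrays read 0.48, 0.65 and 0.72. Hoxa7 stood at 0.18, Hoxa5 at -0.01, Hoxa9 at -0.03 and Hoxa13, a gene of the hand and foot, at 0.01, of which Hoxa7 alone passed. The probes of Hoxa3, which is needed for thymus and neck structures, gave -0.09 and -0.08, and neither passed.

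Hoxa11, needed for the forearm bones and the uterus, was the one coding Hoxa gene past the threshold on the reference side. It gave -0.73, -0.13 and -0.55 on Day 2, -0.97, -0.50 and -0.72 on Day 5, -0.81, -0.97 and -0.56 on Day 10, and -0.45, -0.60 and -1.03 on Day 28, a level of -0.67 (SE 0.07). Hoxa11os, the RNA transcribed from its opposite strand, gave -0.69, -0.52 and -0.49 on Day 2, -0.54, -0.36 and -0.49 on Day 5, -0.89, -0.94 and -0.43 on Day 10, and -1.29, -0.66 and -1.06 on Day 28, a level of -0.70 (SE 0.06). Both were below 0 on all 12 arrays. They overlap in the genome and the strand of the probes is not given in the sources used here, so the pair may not be independent.

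In the Hoxc cluster 3 of 6 genes were lower in the cells (31.1% of all probes) and 1 higher (30.8%). Hoxc13, which controls hair and nail keratin genes, gave -1.30, -0.41 and -0.56 on Day 2, -1.39, -1.13 and -1.29 on Day 5, -0.94, -1.36 and -1.05 on Day 10, and -0.84, -1.67 and -1.81 on Day 28. Its level was -1.15 (SE 0.09, limma adjusted p = 8.91e-08), and the 2 least negative arrays were of Day 2. Hoxc5, of the neck and upper trunk, ranged from -1.48 to -0.51 with a level of -1.04 (SE 0.08). Its neighbour Hoxc4 was at -0.52 with 1 array above 0, and Hoxc6, a thoracic gene, was at 0.29 with 2 arrays below 0. Hoxc8 (-0.01) and Hoxc9 (-0.11) did not pass.

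**Figure D2:**
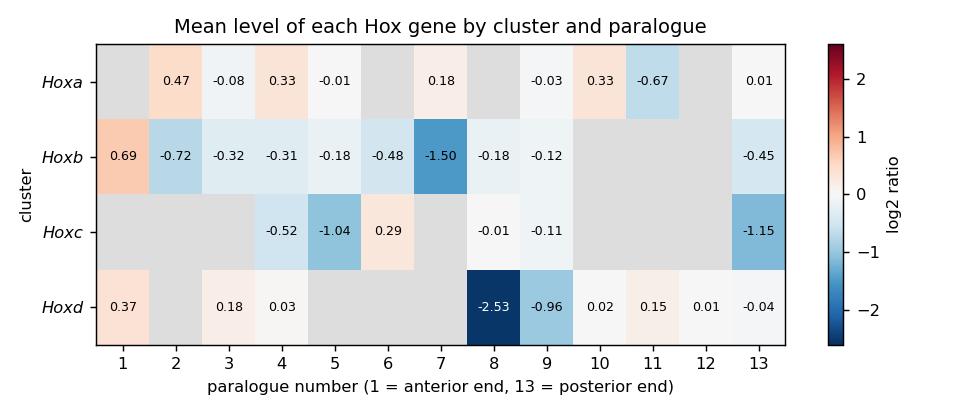
Level (log2 ratio of cells to reference, colour) of the Hox genes by cluster (rows) and paralogue number (columns), with the mean of both probes for Hoxa3 and with grey where no gene was measured or none exists. The lowest levels are at Hoxd8, Hoxb7, Hoxc13 and Hoxc5, and the Hoxb row is below 0 from Hoxb2 on.

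By position within the clusters, the 8 anterior probes (numbers 1 to 3) had a median of 0.05, with 4 higher and 2 lower in the cells. The 14 central probes (4 to 8) had -0.18, with 3 higher and 8 lower, and the 13 posterior probes (9 to 13) -0.04, with 2 higher and 4 lower. Over all probes 30.8% were higher and 31.1% lower. Some paralogues and neighbours lay apart and others close together. Hoxd8 was at -2.53, Hoxb8 at -0.18 and Hoxc8 at -0.01, and Hoxb1 at 0.69 was the highest while Hoxb2 beside it was at -0.72. Hoxa9, Hoxb9 and Hoxc9, in contrast, were at -0.03, -0.12 and -0.11, and the neighbours Hoxb3 and Hoxb4 at -0.32 and -0.31. These medians describe small groups and were not tested against each other. A Hox-linked RNA outside the symbol rule, Hoxaas2, stood at -0.07 (SE 0.06).

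No Hox probe passed a test of change over the course. In the F test across the 4 days, 0 of 37 passed, where 5.32% of all probes did, and the adjusted p-values of the Hox probes ran from 0.248 to 0.995 with a median of 0.753. At an unadjusted p under 0.05 there was 1, Hoxa11os, against 18.7% of all probes. The day means of 30 probes spanned less than 0.5 (77.5% of all probes), and the median span was 0.26 for Hox probes and 0.32 for all. Hox probes were also somewhat noisier, with a median SD within a day of 0.258 against 0.209. The interval half-widths given below match an unadjusted p of 0.05. Passing the adjusted threshold took a larger change still, so changes beyond the half-widths could also go uncalled with 3 arrays a day.

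From Day 2 to Day 5, 0 Hox probes passed in limma (0.337% of all probes), and 0 had an unadjusted p under 0.05 (10.1%). From Day 5 to Day 10, 0 passed (0.149%), and Hoxc4 and Hoxd8 had an unadjusted p under 0.05 (8.99% of all). Hoxd8 differed by -0.62 (SE 0.22, adjusted p = 0.417 in limma), all 3 Day 10 arrays lying below the Day 5 arrays. From Day 10 to Day 28, 0 passed (0.84%), and Hoxa10 alone had an unadjusted p under 0.05 (10.8%), with a difference of 0.40 (SE 0.18, adjusted p = 0.426 in limma). The arrays of neighbouring days did not overlap for 2, 4 and 5 Hox probes in these steps, where 15.1%, 12.8% and 18.2% of all probes were without overlap.

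Across the whole course, Day 28 against Day 2, 0 Hox probes passed in limma where 5.69% of all did. An unadjusted p under 0.05 was reached by Hoxa11os, Hoxb13, Hoxd13 and Hoxc13, 4 of 37, against 18.3% of all probes. The arrays of the 2 days did not overlap for 2 probes, Hoxb13 and Hoxd13, against 28.6% of all. Hoxb13 gave -0.10, 0.08 and -0.20 on Day 2 and -0.69, -0.35 and -0.65 on Day 28, a difference of -0.49. Hoxd13 gave -0.13, -0.18 and -0.11 on Day 2 and 0.07, 0.21 and 0.08 on Day 28, a difference of 0.26. Differences ran from -0.69 for Hoxc13 (SE 0.26, interval -1.25 to -0.12, limma adjusted p = 0.171) to 0.28 for Hoxd3os1, with 11 above 0 and 26 below. Of all 17504 probes 8426 were above 0, and the median was -0.10 for Hox probes against -0.01 for all.

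**Figure D3:**
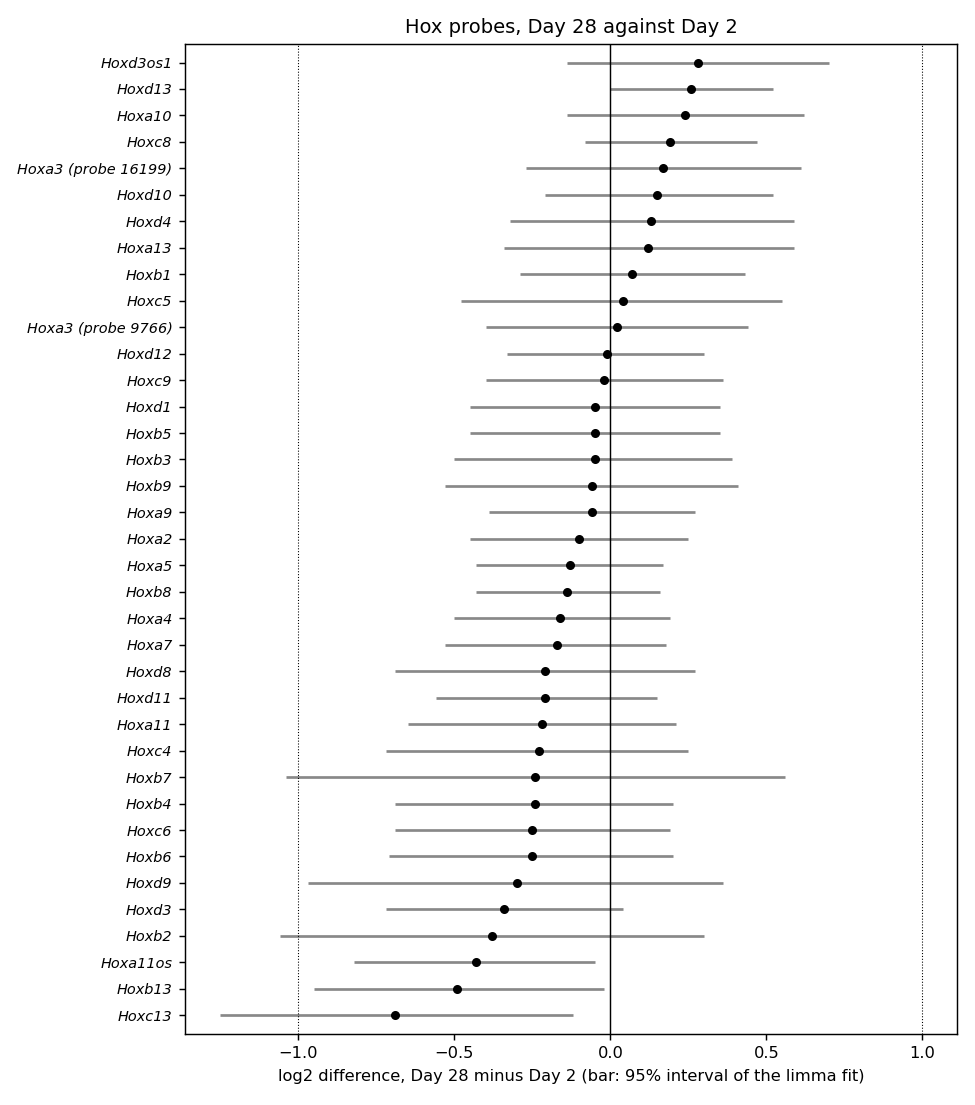
Log2 difference between Day 28 and Day 2 for each Hox probe (points, Day 28 minus Day 2) with its 95% interval from the limma fit (bars), dotted lines marking a change of 1 either way. The intervals of 34 of 37 probes lie between the dotted lines, and those of Hoxc13, Hoxb2 and Hoxb7 extend below -1.

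The intervals bound a change of the log2 ratio, each for 1 probe alone with no allowance for the number of probes. Where a ratio near 0 came from a weak spot in both channels, they do not bound a change in RNA. For 34 of 37 probes the 95% interval of the Day 28 minus Day 2 difference lay within 1 of 0 on the log2 scale. That is within a doubling or halving of the ratio. Half-widths ran from 0.26 to 0.80 with a median of 0.42. Hoxb1 differed by 0.07 and Hoxa2 by -0.10 between these days. The highest day mean was on Day 2 for 15 probes, on Day 5 for 12, on Day 10 for 4 and on Day 28 for 6. Shares over all probes were not computed for these counts, and no Hox probe passed a test of the course.

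Day 28 replicate 1 decided 3 of these outcomes. Without it, Hoxd9 passed the F test (limma adjusted p = 0.0419) and was lower on Day 28 than on Day 10 by 1.08 on the log2 scale (-1.08, SE 0.20, limma adjusted p = 0.0376). With that array its difference was -0.61 (SE 0.31, limma adjusted p = 0.509). Without the same array Hoxc13 was lower on Day 28 than on Day 2 (-0.99, SE 0.24, limma adjusted p = 0.0417). Under every other alternative run, 0 Hox probes passed in the F test and in each of the 4 comparisons. Without both arrays that stood apart, 22 of 37 levels passed, and Hoxa7 and Hoxd3 lost their calls.

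Genes that work with Hox proteins were measured beside them. The TALE cofactors, homeodomain proteins of the Pbx, Meis and Pknox families that bind DNA together with Hox proteins, were covered by 6 of 9 genes, with 3 higher and 3 lower than the reference and 0 past the F test. For this and the following lists, the shares over all probes are 30.8% higher, 31.1% lower and 5.32% past the F test. Meis3 had the highest level, 1.17 (SE 0.05), and was above 0 on all arrays. Meis2 was at 0.33, Meis1 at -0.37, Pbx2 at -0.12 and Pknox1 at -0.69. For Meis3 the Day 2 mean was 1.09 and the Day 28 mean 1.21, a difference of 0.12 (limma adjusted p = 0.723).

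Polycomb proteins keep Hox genes silent outside their domains, and Trithorax proteins keep them active. Of the Polycomb genes, 20 of 23 were measured, 8 higher (30.8% of all probes) and 10 lower (31.1%) in the cells, and 2 passed the F test (5.32%). Cbx7, a reader of the Polycomb histone mark, gave -1.69, -1.52 and -1.54 on Day 2 and -0.35, -0.63 and -0.62 on Day 28, with no overlap. It rose by 1.05 (SE 0.19, limma adjusted p = 0.00466). Pcgf2, a subunit of the Polycomb ubiquitin ligase complex, passed the F test at an adjusted p of 0.0448 in limma, and the call was lost without any one of the 12 arrays. Bmi1, a paralogue of Pcgf2, stood at 1.02 and Cbx8, another reader, at 0.62. Ezh2 (-1.02), Eed (-0.86) and Suz12 (-0.77), of the enzyme complex that writes the mark, were lower in the cells. Of the same list, Rbbp4 was at -0.24 and Rbbp7 at 0.05, which did not pass. All of these were named after their values were seen.

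Of the Trithorax group and related genes, 9 of 13 were measured, 0 higher (30.8% of all probes) and 8 lower (31.1%) in the cells, with a median of -0.35 and 0 past the F test (5.32%). Wdr5, a shared subunit of the methyltransferase complexes, had the lowest level, -0.70, and Kmt2b, one of the enzymes, the highest, -0.08, which did not pass. Kmt2a, the enzyme best known for sustaining Hox expression, was at -0.46, with a difference between Day 28 and Day 2 of -0.50 (limma adjusted p = 0.0942). Dpy30 and Ash2l, other shared subunits, were at -0.56 and -0.30.

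Retinoic acid is a known inducer of Hox genes, most of all of the low numbers. Of its pathway, 15 of 18 genes were measured, 4 higher (30.8% of all probes) and 8 lower (31.1%) in the cells, and 2 rose from Day 2 to Day 28 (3.68%). Rxra, named for its differing probes, counted as higher at 0.77, while its other probe read 0.0. Crabp2, which carries retinoic acid to its nuclear receptors, gave 4.24, 3.72 and 4.05 on Day 2 and 5.49, 5.91 and 5.33 on Day 28. Its level was 4.77, and it rose by 1.57 (SE 0.22, limma adjusted p = 0.000809), a call lost after quantile normalization of the arrays. Dhrs3, which turns retinaldehyde back to retinol, gave -2.00, -1.81 and -2.04 on Day 2 and -0.46, -0.70 and -0.38 on Day 28, and rose by 1.43 (limma adjusted p = 0.00229). Crabp1, the other cellular carrier, was at -4.57, at the opposite end of the list, and differed by -0.58 over the course (limma adjusted p = 0.555). Rbp4, the carrier of retinol in blood, was at 0.03.

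Homeobox and related genes that pattern the head and skull without belonging to the Hox clusters were listed for comparison. Of 24, 20 were measured, 15 higher (30.8% of all probes) and 3 lower (31.1%) in the cells, with a median level of 0.70 beside -0.09 for the Hox probes, a difference that was not tested. Prrx1 and, named for this overlap, Twist1 were also among the mesenchymal markers used to read the direction of the ratio. Dlx5, an activator of osteoblast genes, had the highest level, 2.83. Prrx2 (2.82), En1 (2.49), Prrx1 (1.64), Msx2 (1.56), Alx4 (1.36) and Zic1 (1.18) were also above 1, named after their values were seen, while no Hox probe was. Msx2 and Alx4 are known from inherited defects of skull closure, and En1 and Zic1 from the midbrain and the dorsal neural tube.

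From Day 2 to Day 28, 3 of these genes fell and 0 rose, where 2.01% of all probes fell and 3.68% rose. Dlx1, a gene of the branchial arches and forebrain, gave 1.06, 0.74 and 0.71 on Day 2 and -0.28, -0.12 and -0.14 on Day 28 and fell by 1.02 (limma adjusted p = 0.0279). Dlx2, its linked partner, gave 1.38, 1.42 and 1.55 on Day 2 and 0.63, 0.47 and 0.61 on Day 28 and fell by 0.88 (limma adjusted p = 0.0119). Twist2, a repressor of osteoblast maturation, had the lowest level of the list, -1.39, and fell by 0.62 (limma adjusted p = 0.0402). With single arrays left out, the calls of Dlx1, Dlx2 and Twist2 were kept in 6, 10 and 4 of 12 cases, and that of Twist2 was also lost with quantile normalization and with the replicate block. The difference in course between these genes and the Hox genes was not tested.

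**Figure D4:**
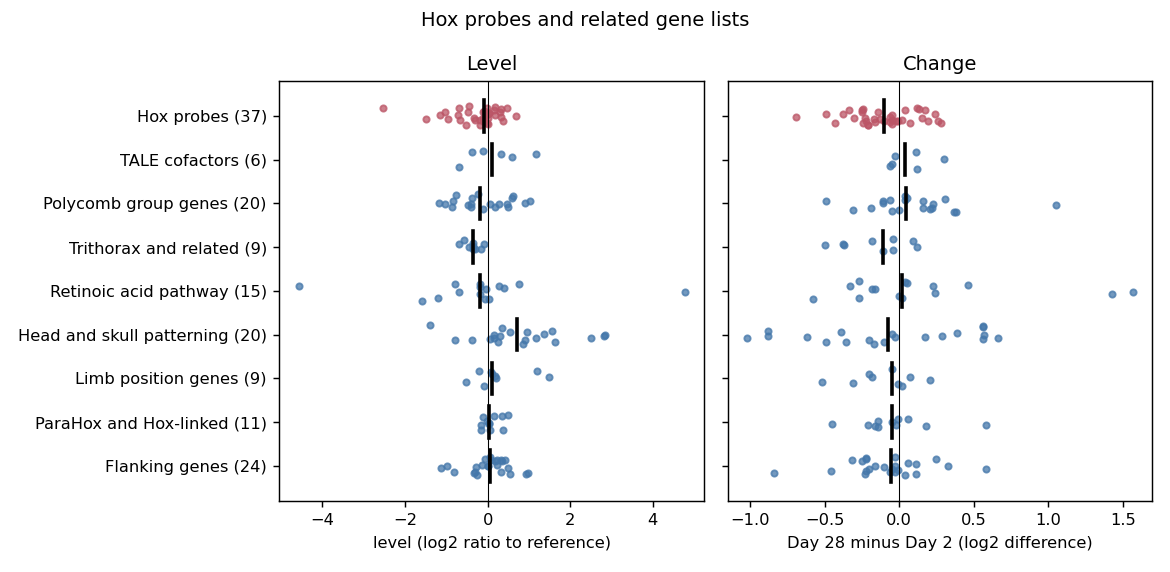
Left, the level (log2 ratio of cells to reference), and right, the log2 difference Day 28 minus Day 2, of the Hox probes (red points) and of the measured genes of each list (blue points, number in brackets), with each median as a black line. On the left the Hox probes gather around a median of -0.09 with a tail down to Hoxd8, and the head and skull genes have a median of 0.70 with members up to 2.83.

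Genes that set limb position, where posterior Hoxa and Hoxd genes also act, were measured for 9 of 11, 4 higher and 2 lower in the cells, with a median of 0.11. Shox2, a gene of the upper limb segment, was at 1.48 and Tbx15, which also acts in skull and skin, at 1.20, although a second Tbx15 probe read 0.01. Lhx2 was lowest at -0.52. Tbx5, the forelimb gene, was at -0.21 and Tbx2 at 0.21. None of the 9 passed the F test.

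The ParaHox and Hox-linked homeobox genes were the closest relatives measured, 11 of 13, with a median of 0.04, 4 higher and 3 lower. Evx2, which lies next to Hoxd13 and has the highest level of the list (0.50), passed the F test (limma adjusted p = 0.0474). It gave 0.98, 0.04 and 0.56 on Day 2, 0.16, 0.35 and -0.01 on Day 5, 0.21, -0.11 and 0.43 on Day 10, and 1.00, 1.32 and 1.02 on Day 28, so that Day 28 lay above all earlier arrays. Its F call was kept in 3 of 12 cases with an array left out. The call was also lost with quantile normalization, with equal spread of the arrays and with the replicate block. Gsx1 was lowest at -0.17, Meox1 was at 0.16, and Cdx2, an activator of posterior Hox genes, was at 0.04.

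The genes next to the clusters were read as a local comparison. These were the 3 nearest measured genes on either side of each cluster, 24 in all, with a median of 0.07, 10 higher and 7 lower in the cells. Hibadh, an enzyme of valine breakdown beyond the Hoxa cluster, was highest at 0.97. Cbx1, a heterochromatin protein gene beyond Hoxb, was lowest at -1.13, and Hnrnpa1, an RNA-binding protein gene beyond Hoxc, was at -0.82. Hnrnpa3, named for its differing probes, counted as lower at -0.99, while its other probe read 0.23. Of the 24, Evx2 was the only gene past the F test.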

How the data were processed

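RNA of MC3T3-E1 cells was measured against a common reference RNA on 12 two-colour oligonucleotide arrays, 3 for each day. The authors deposited 1 table of log ratios, taken here as log2, with 17664 rows and 0 missing values. R 2.13.0 is credited in the submitters' processing notes. How the background and the dyes were corrected, which logarithm was used and which channel was the numerator is not given in the sources used here. Column medians lay within 0.0132 of 0, and no pair of arrays correlated below 0.723. As on any array, precision is limited by the number of arrays.

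Probes were named from the platform annotation (14010 rows with 1 gene, 13 with several, 3641 with none), with symbols updated through a RefSeq gene table of GRCm38.p6 for 13908 of them. Spots of 10 genes printed 17 times each were averaged, leaving 17504 probes. Each array was centred on its median, and limma 3.58.1 under R 4.3.3 estimated the 4 day means jointly from the 12 arrays (lmFit and eBayes, 8 residual and 5.23 prior degrees of freedom). Benjamini-Hochberg adjustment ran over all probes, with 0.05 as the threshold. SEs and 95% intervals come from this fit. The fit was tested on simulated data.

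Alternatives were no centring, quantile normalization, equal spread of arrays, array weights, a robust prior, a replicate block, one-gene probes only, averaged probes of a gene, single arrays or both deviating arrays left out, and fits of 2 days alone. Same-numbered replicates did not pair: correlations of their deviations from the day means ran from -0.271 to 0.205, with 2 of 18 over 0.1.

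The Hox members and the gene lists were chosen with earlier results of these data known. Named were all Hox probes and, of the lists of related genes, those past a threshold in the course, filled up to 3 by the smallest F test p-value, and those of highest and lowest level. From the lists of cell type markers a part of the genes so selected is named, and genes outside the rule are marked in the text. A gene with several probes counts by its lowest probe number. Lists are described by counts and medians, with no test.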

Additional observations from a re-analysis of the deposited data

How the results depend on the processing

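For the Hox probes, the count of levels past the threshold was 24, between 21 and 25 with single arrays left out and between 22 and 24 under the other alternatives. With the replicate block it was 23, Hoxd11 losing its call, and 0 Hox probes passed in the F test and the 4 comparisons. In these 5 tests of the course the count of Hox probes was 0 under every alternative, except that leaving out single arrays gave 0 to 1 in the F test, in Day 28 against Day 10 and in Day 28 against Day 2, the 1 arising without Day 28 replicate 1. The calls of Hoxa7, Hoxb5, Hoxd3 and Hoxd11 were lost in some alternatives, and Hoxb9 gained one without Day 10 replicate 3 (-0.18). Levels of 7 probes that had not passed changed sign within a few hundredths of 0. With single arrays left out they ran from -0.016 to 0.076 for Hoxd4, -0.024 to 0.008 for Hoxc8, -0.030 to 0.047 for Hoxd10, -0.056 to 0.004 for Hoxa9, -0.032 to 0.067 for Hoxa13, -0.045 to 0.016 for Hoxa5 and -0.023 to 0.027 for Hoxd12. With array weights Hoxd4 was at -0.006, Hoxc8 at 0.007 and Hoxa13 at -0.006. Without both deviating arrays Hoxd4 was at -0.029, Hoxc8 at 0.021, Hoxa13 at -0.020 and Hoxd12 at -0.002, and with one-gene probes only Hoxc8 was at 0.008. The cause of these shifts was not tested. Counts over all probes moved more: 931 in the F test (515 to 1429 with single arrays left out, 697 to 1764 otherwise), 59 in Day 5 against Day 2 (20 to 160, 30 to 231), 26 in Day 10 against Day 5 (1 to 83, 0 to 52), 147 in Day 28 against Day 10 (65 to 198, 65 to 420) and 996 in Day 28 against Day 2 (529 to 1431, 799 to 1704). The limits are 3 arrays a day, unexchanged dyes, so that a probe's dye bias enters its level, a reference with no spread of its own, and signal over background, which is unknown here.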
